A study of Mus musculus with 24 samples.

Results

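The 10 genes described here belong to 2 stress programmes: the Gadd45 family (Gadd45a, Gadd45b and Gadd45g) and the integrated stress response (Atf4, Atf5, Ddit3, Trib3, Chac1, Asns and Sesn2). They were taken by symbol from a gene count table of mouse thoracic aorta with 25941 genes; each symbol matched 1 gene, and all 10 passed the filter on low counts that left 14528 genes for testing. They were chosen by their measured diet differences in these same libraries and as relatives or pathway partners of genes found that way, so their diet contrasts are given as descriptions. RNA-seq had been made as 24 libraries, 8 per diet group, called biological replicates in the labels. The control group ate plain chow, the celecoxib group chow delivering 100 mg/kg/day of that drug, and the rofecoxib group chow delivering 50 mg/kg/day, each for 3 weeks. Both drugs are selective inhibitors of cyclooxygenase-2, the inducible enzyme of prostaglandin synthesis, and their doses differed. All mice, controls included, were wildtype C57BL/6 adult males of 10 to 12 weeks that had received IL-1β intraperitoneally at 10 µg/kg 4 h before collection at ZT11 (hours after lights-on), so no group shows the genes without the cytokine. The 2 comparisons with control share the same 8 control libraries.

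GADD45 proteins are small stress-induced proteins that bind the kinase MAP3K4 upstream of p38 and JNK, the proliferation clamp PCNA and the cell cycle inhibitor p21. Gadd45b is a textbook target of NF-κB and Gadd45a of p53. In the integrated stress response, kinases that sense misfolded protein, amino acid shortage, viral RNA or haem shortage phosphorylate the translation factor eIF2, which lowers general protein synthesis and raises translation of ATF4. ATF4 then switches on genes of amino acid supply and, under lasting stress, the transcription factor CHOP (encoded by Ddit3), which has been studied in smooth muscle cells and macrophages of diseased arteries. Because ATF4 is controlled mainly in translation, its mRNA level is only part of its regulation.

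ATF4 binds with C/EBP proteins at a composite element whose core can be written TGATGNAA. The letters were searched on both strands of RefSeq promoter windows (GRCm38.p6), from 250 bases before to 50 after each annotated start, and all 10 genes had such a window. Matches lay in the windows of Gadd45g, Asns, Chac1 and Trib3, 4 of 10 genes, against 4.51% of 27025 genes with a window. Some of the 10 were chosen as genes of the integrated stress response, so nothing is read from this share. In Trib3 the match began 14 bases after the start, and Trib3 and Chac1 were called in no diet comparison. The stretches of the 3 genes with the match before the start are shown, with the matching letters in capitals. Each is read 5′ to 3′ on the strand of the gene.
Gadd45g, chr13:51846544-51846633, plus strand: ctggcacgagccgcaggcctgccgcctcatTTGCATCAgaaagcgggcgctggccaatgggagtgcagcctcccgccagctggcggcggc
Asns, chr6:7693210-7693262, minus strand: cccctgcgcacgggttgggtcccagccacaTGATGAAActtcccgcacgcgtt
Chac1, chr2:119351019-119351108, plus strand: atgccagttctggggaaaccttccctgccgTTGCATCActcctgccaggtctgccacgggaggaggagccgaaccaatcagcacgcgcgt
The capitals began at -101 in Gadd45g, -23 in Asns and -193 in Chac1, counted from the annotated start. In Gadd45g and Chac1 they are the opposite-strand reading of the core with C in the free position, and in Asns they are the core itself with A there. A match describes the letters only and was not tested as a binding site.

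The libraries were close in size, from 21668798 to 21700121 counts. Levels are given as CPM, read counts scaled to a common library size with TMM factors, as mean ± SD over 8 libraries, and comparisons between genes as CPM per kilobase of exon. The tissue carried smooth muscle markers at a summed 25851 to 41961 CPM, and adipocyte markers were also read in every library. Which cells these reads came from was not tested. The summed CPM of 7 adipocyte markers had a median of 1386 in control, 1384 in celecoxib and 3061 in rofecoxib libraries, and rofecoxib replicate 8, at 954, lay below the other rofecoxib libraries, which began at 2330. With edgeR (quasi-likelihood fit, p adjusted by Benjamini-Hochberg over all genes), 0.0344% of genes tested were called at 0.05 for celecoxib against control (5 genes), 6.94% for rofecoxib against control (563 higher, 445 lower, but 1106 and 310 with scaling by library size alone) and 4.89% for celecoxib against rofecoxib (710 genes). The median log2 fold change over all genes was 0.00, 0.02 and 0.01 in the 3 comparisons. In bulk tissue, fewer cells of a type and less RNA per cell cannot be told apart.

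Per kilobase of exon, the 10 genes spanned a wide range of levels in control aorta. Atf4 stood highest at 97.8 CPM per kilobase, followed by Gadd45g at 79.3, Gadd45b at 78.7 and Atf5 at 68.4. The ranges of neighbours among these 4 overlapped. Ddit3 was next at 16.4, below every library of Atf5, then Asns at 6.47, below every library of Ddit3. Chac1 at 4.06, Gadd45a at 2.92, Sesn2 at 2.68 and Trib3 at 2.410 formed the low end, each overlapping its neighbour. Gadd45g was the second of the 10 in control and the fourth in both drug groups, while Atf4 stayed first.

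**Figure D1:**
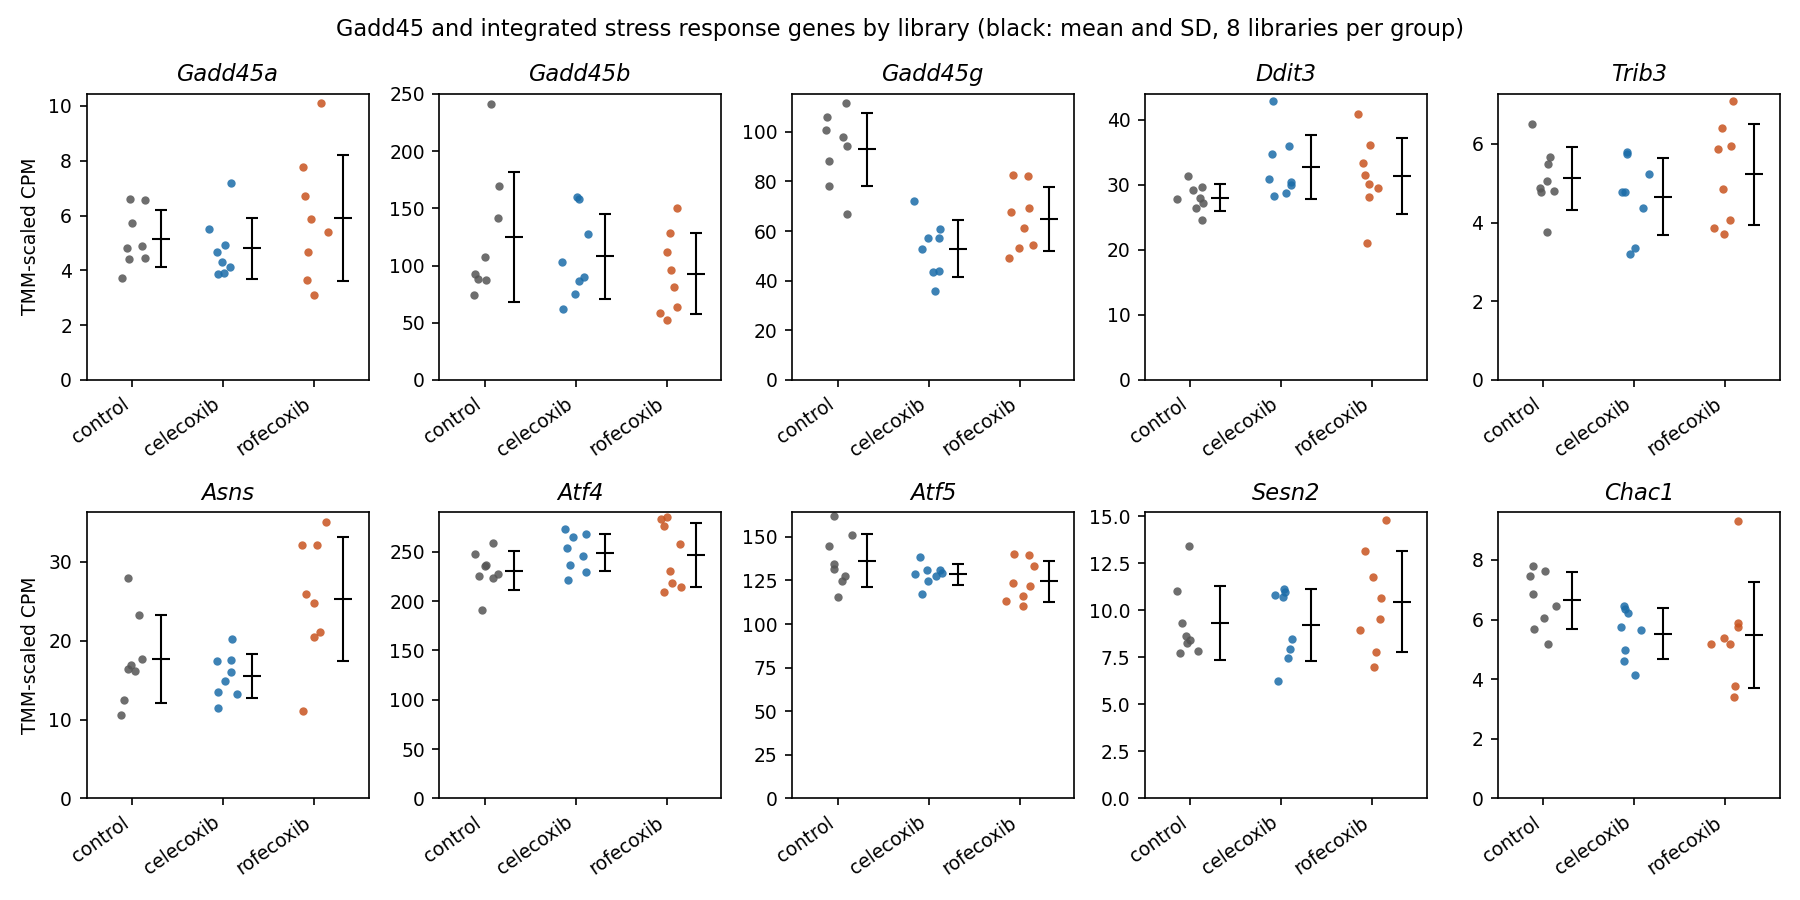
Level of each of the 10 genes in TMM-scaled CPM (y axis, from 0, a separate scale per gene) in control, celecoxib and rofecoxib libraries (x axis). Points are single libraries, and the black bars give mean and SD of 8 libraries. Gadd45g is lower in both drug groups, Asns is spread widely with the highest values in rofecoxib, and the groups of the other genes lie over each other.

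Of the Gadd45 family, Gadd45g, whose human counterpart was found as a cytokine-induced growth arrest gene, was lower with either drug, while Gadd45a and Gadd45b were not called. Gadd45g lies on chr13:51941845-51944039 (ENSMUSG00000021453, mm9). It ranged from 66.8 to 112 CPM (median 96.2) in control, from 35.9 to 71.9 (median 54.9) in celecoxib and from 49.0 to 82.7 (median 64.6) in rofecoxib libraries. In celecoxib 7 of 8 libraries were below every control, with replicate 6 the one inside the control range, and 4 of 8 rofecoxib libraries were below every control. The mean was 92.99 ± 14.8 in control, 52.9 ± 11.5 with celecoxib and 65.0 ± 12.9 with rofecoxib. The log2 fold change was -0.81 (SE 0.13, edgeR adjusted p = 0.020) with celecoxib and -0.52 (SE 0.13, edgeR adjusted p = 0.025) with rofecoxib. Gadd45g held the second smallest p of all genes for celecoxib and was number 411 for rofecoxib. Between the drugs it was lower with celecoxib by -0.30 on the log2 scale (95% interval -0.57 to -0.02), which did not pass (edgeR adjusted p = 0.18).

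The same libraries had served in choosing the genes, so nothing is read from a shared direction in parts of them. As a description, the Gadd45g difference is given with the libraries divided by replicate number. In replicates 1 to 4 its log2 fold change was -0.90 for celecoxib and -0.54 for rofecoxib, and in replicates 5 to 8 it was -0.71 and -0.49, with 4 libraries per group. Of these only the first passed (edgeR adjusted p = 0.019, against 0.061, 0.14 and 0.24). With the levels of adipocyte and skeletal muscle markers as covariates it was -0.80 for celecoxib (edgeR adjusted p = 0.031) and -0.63 for rofecoxib (edgeR adjusted p = 0.15). Leaving out 1 library at a time gave -0.89 to -0.75 for celecoxib. The call was lost without celecoxib replicate 5, 7 or 8 or control replicate 2, 3 or 4, at adjusted p up to 0.070. These fits called 0 or 1 gene among all genes tested. For rofecoxib the range was -0.58 to -0.47, and the call was lost without rofecoxib replicate 7 or control replicate 1, at adjusted p up to 0.056.

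Gadd45b, which restrains JNK signalling downstream of NF-κB, had the widest spread of the 10, its highest library standing 4.63 times above its lowest. It ranged from 74.4 to 241 CPM in control (median 99.7), from 62.3 to 160 in celecoxib (median 96.7) and from 52.1 to 151 in rofecoxib (median 88.4). The groups overlapped over most of their range. Its log2 fold change was -0.21 with celecoxib and -0.43 with rofecoxib, each with an SE of 0.26. The rofecoxib interval ran from -0.97 to 0.10, so a fall of the size seen in Gadd45g lies inside it. Gadd45a, a p53 target, was present at a far lower level, 5.15 ± 1.04 CPM in control, 4.81 ± 1.11 with celecoxib and 5.91 ± 2.29 with rofecoxib, and its log2 fold changes were -0.10 (SE 0.20) and 0.20 (SE 0.19).

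None of the 3 transcription factors of the integrated stress response was called. Atf4, its central activator, ranged from 191 to 259 CPM in control, from 221 to 273 in celecoxib and from 209 to 286 in rofecoxib. The 3 ranges overlapped, and the log2 fold changes of 0.11 and 0.10 (SE 0.07 each) were not called. The 95% intervals reached 0.26 with celecoxib and 0.25 with rofecoxib. Atf5, a relative of Atf4 that acts in the mitochondrial stress response, was at 136 ± 15.2 CPM in control, 129 ± 6.05 with celecoxib and 125 ± 11.8 with rofecoxib, again without a call. Ddit3, which encodes CHOP, ranged from 24.6 to 31.3 CPM in control, from 28.3 to 42.9 in celecoxib and from 20.99 to 40.9 in rofecoxib. In celecoxib 3 libraries and in rofecoxib 4 exceeded every control. Its log2 fold change was 0.22 (SE 0.10) with celecoxib, with an unadjusted p of 0.036 and an edgeR adjusted p of 0.34, and 0.16 (SE 0.10) with rofecoxib.

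Of the effectors downstream, Asns was called in the comparison between drugs, and Chac1, Trib3 and Sesn2 in no comparison. Chac1, an enzyme that breaks down glutathione, was at 6.64 ± 0.96 CPM in control, 5.52 ± 0.86 with celecoxib and 5.49 ± 1.78 with rofecoxib, with a log2 fold change of -0.27 (SE 0.15) in both. All 8 celecoxib libraries and 7 of 8 rofecoxib libraries were below the control mean, and the exception, rofecoxib replicate 2, was the highest of all 24 at 9.31. Chac1 and Ddit3 thus lay on opposite sides of the control level in both drug groups, neither passing. Trib3, a pseudokinase that binds CHOP and AKT, was at 5.12 ± 0.80, 4.65 ± 0.98 and 5.22 ± 1.28 CPM in control, celecoxib and rofecoxib. Sesn2, a leucine-binding inhibitor of mTORC1, was at 9.33 ± 1.95, 9.21 ± 1.91 and 10.5 ± 2.68 CPM. For these low genes the SE of the log2 fold change was 0.15 to 0.16.

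**Figure D2:**
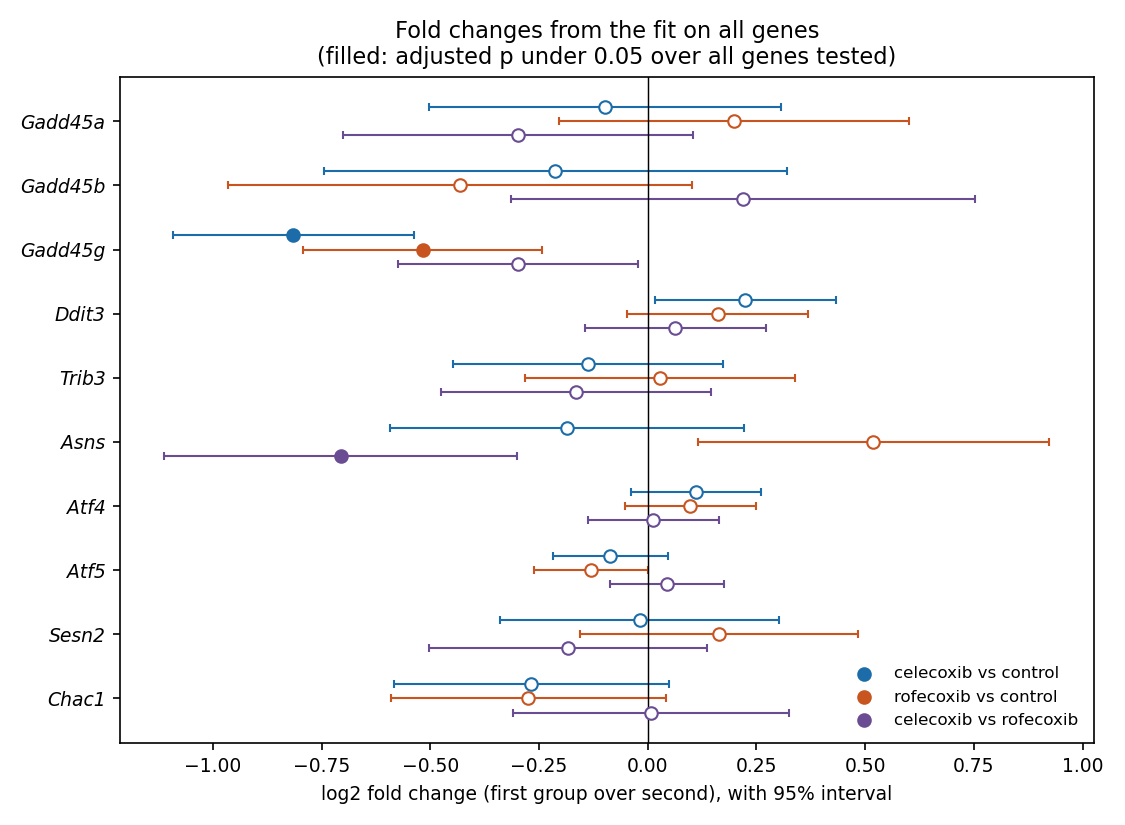
Log2 fold change of each gene (x axis, with its 95% interval) for celecoxib over control, rofecoxib over control and celecoxib over rofecoxib. Filled points passed an edgeR adjusted p of 0.05 over all genes tested. Gadd45g is filled in both comparisons with control, at -0.81 and -0.52, and Asns in the comparison between drugs, at -0.71.

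One of the 10 genes was thus called for celecoxib, against 0.0344% of all genes, 1 for rofecoxib, against 6.94%, and 1 between the drugs, against 4.89%. These contrasts had served in naming the genes, so nothing is read from the counts. In each comparison 2 of 10 had an unadjusted p under 0.05, against 13.6%, 28.2% and 23% of all genes. The median log2 fold change of the 10 was -0.12 for celecoxib, 0.06 for rofecoxib and -0.08 between the drugs. Values above 0 were seen in 2, 6 and 5 of 10, against 50.4%, 54.9% and 51.7% of all genes. In none of the 10 did 2 diet groups separate without overlap, against 0.234%, 0.785% and 0.0551% of all genes.

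Asns makes asparagine from aspartate and is a standard target of ATF4. It lies on chr6:7624967-7643456 (ENSMUSG00000029752, mm9). It ranged from 10.6 to 27.96 CPM (median 16.7) in control, from 11.4 to 20.2 (median 15.4) in celecoxib and from 11.05 to 35.1 (median 25.4) in rofecoxib. All celecoxib libraries lay below the rofecoxib mean of 25.3, and the ranges overlapped because rofecoxib replicate 8 was at 11.05, under every celecoxib library. The log2 difference, celecoxib minus rofecoxib, was -0.71 (SE 0.20, 95% interval -1.11 to -0.30, edgeR adjusted p = 0.042) at doses that were not matched. Against control it was -0.19 with celecoxib (edgeR adjusted p = 0.69) and 0.52 with rofecoxib (SE 0.20, edgeR adjusted p = 0.090). The rofecoxib value was called in 2 of 24 fits that left out 1 library. These were the fits without rofecoxib replicate 8 (edgeR adjusted p = 0.021) or control replicate 4. Of 12 other settings, 1 called it, limma voom with sample weights (0.54, adjusted p = 0.038). With adipocyte and skeletal muscle levels as covariates the rofecoxib value was -0.07 (edgeR adjusted p = 0.88), in a fit that called 15 genes among all tested.

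Asns moved with markers of other cell types. After removal of group means, over the 24 libraries, its log2 CPM followed the mean log2 CPM of adipocyte markers. The Pearson r was 0.84 (Spearman rho 0.79). With endothelial markers r was 0.80, with macrophage and neutrophil markers 0.66 each, with brown adipocyte markers 0.57 and with smooth muscle markers -0.81. With Schwann cell, skeletal muscle and fibroblast markers it was 0.29, 0.22 and 0.18. Of the other expressed genes, 12.7% had an absolute r above 0.6 with Asns. Smooth muscle and endothelial lists had 0 of 6 markers called between the drugs. Yet 6 of 6 smooth muscle markers were higher with celecoxib than with rofecoxib, 4 of them at an unadjusted edgeR p under 0.05. Of the endothelial markers 5 were lower and 1 higher, with 3 under 0.05, against 23% of all genes. Called lower with celecoxib than with rofecoxib were 5 of 7 adipocyte markers, 3 of 6 brown adipocyte markers and 6 of 6 neutrophil markers. So were 4 of 6 macrophage markers and 3 of 6 Schwann cell markers, against 4.32% of all genes. No marker was at 0 in every library of a group. With adipocyte and skeletal muscle levels as covariates the Asns difference between drugs was -0.02 (edgeR adjusted p = 0.999), and in that fit no gene of 14528 was called, with 471 at an unadjusted p under 0.05. Gadd45g had an r of 0.23 with the adipocyte markers, -0.39 with smooth muscle (rho -0.45), 0.36 with neutrophil and 0.17 with endothelial markers, and its log2 fold changes under the same covariates were the -0.80 and -0.63 given above.

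**Figure D3:**
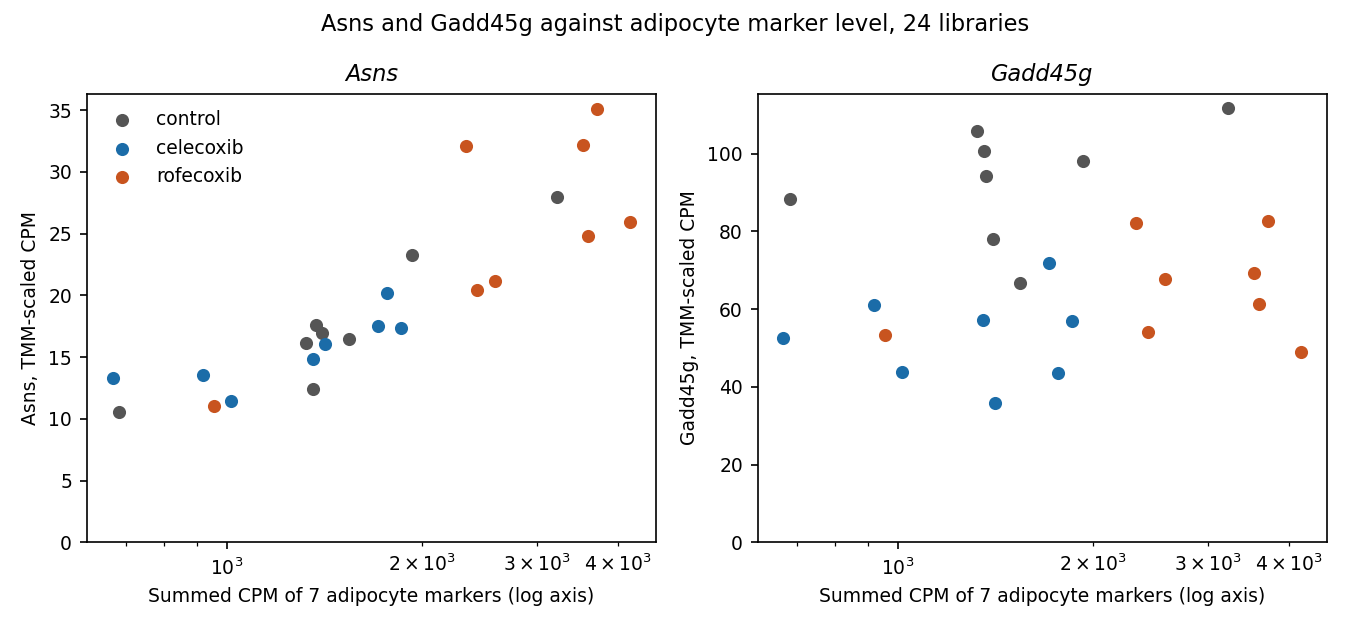
Level of Asns (left) and Gadd45g (right) in TMM-scaled CPM (y axis, from 0) against the summed CPM of 7 adipocyte markers (x axis, log scale). Each point is 1 of 24 libraries, coloured by diet. Asns climbs with the markers across all diets, from 10.6 to 35.1, whereas Gadd45g in control libraries sits high at both low and high marker levels.

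The Asns call was also sensitive to single libraries. It was lost in 14 of 24 fits that each left out 1 library: without celecoxib replicate 2, 3, 4 or 5, rofecoxib replicate 1, 2, 3, 4, 5 or 7, or control replicate 1, 2, 5 or 6. Without celecoxib replicate 2, 3, 4 or 5 or rofecoxib replicate 2, 3, 4 or 7, the fits called 0 to 3 genes. Those without rofecoxib replicate 1 or 5 or control replicate 1, 2, 5 or 6 called 240 to 770 genes. The log2 difference of Asns in the 24 fits stayed between -0.81 and -0.62, with adjusted p from 0.0068 to 0.095. It was -0.98 in replicates 1 to 4 (edgeR adjusted p = 0.014) and -0.41 in replicates 5 to 8 (edgeR adjusted p = 0.83).

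The 10 genes did not vary as 1 block from library to library. This was examined on log2 CPM with each group's mean removed, which does not use the diet contrasts, over 45 pairs of genes and 24 libraries with 100000 permutations of libraries within groups. The median r over pairs was 0.12, and 8 pairs passed a Benjamini-Hochberg adjusted permutation p of 0.05 by Pearson r, 4 positive and 4 negative. Of them 3 also passed by Spearman rho. Gadd45b rose and fell with Atf4 (r = 0.77, rho = 0.80, adjusted permutation p = 0.0018 for each, r = 0.71 without the 2 libraries farthest from the median). Sesn2 ran against both, with Gadd45b at r = -0.60 (rho = -0.64, adjusted permutation p = 0.027 for each, r = -0.53 without 2 libraries) and with Atf4 at r = -0.66 (rho = -0.65, adjusted permutation p = 0.023 and 0.027, r = -0.72 without 2 libraries).

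The other 5 pairs passed by r and not by rho. Gadd45a followed Gadd45b (r = 0.66, rho = 0.57) and ran against Sesn2 (r = -0.58, rho = -0.51). Ddit3 ran against Chac1 (r = -0.67, rho = -0.45, r = -0.38 without 2 libraries). Asns followed Trib3 (r = 0.60, rho = 0.56) and Sesn2 (r = 0.55, rho = 0.51), the latter at -0.04 with adipocyte and skeletal muscle levels as covariates. Sesn2 itself had an r of 0.69 with the adipocyte markers and Trib3 of 0.71 with the endothelial markers. Atf4 had an r of -0.11 with its target Asns. Gadd45g was in none of the 8 pairs; its r with Gadd45a and Gadd45b was 0.35 each. High correlations were common in this tissue: an absolute r above 0.6 was reached by 13.5% of the other expressed genes with Gadd45b, 11.1% with Atf4 and 18.8% with Sesn2, but by 0.608% with Gadd45g.

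**Figure D4:**
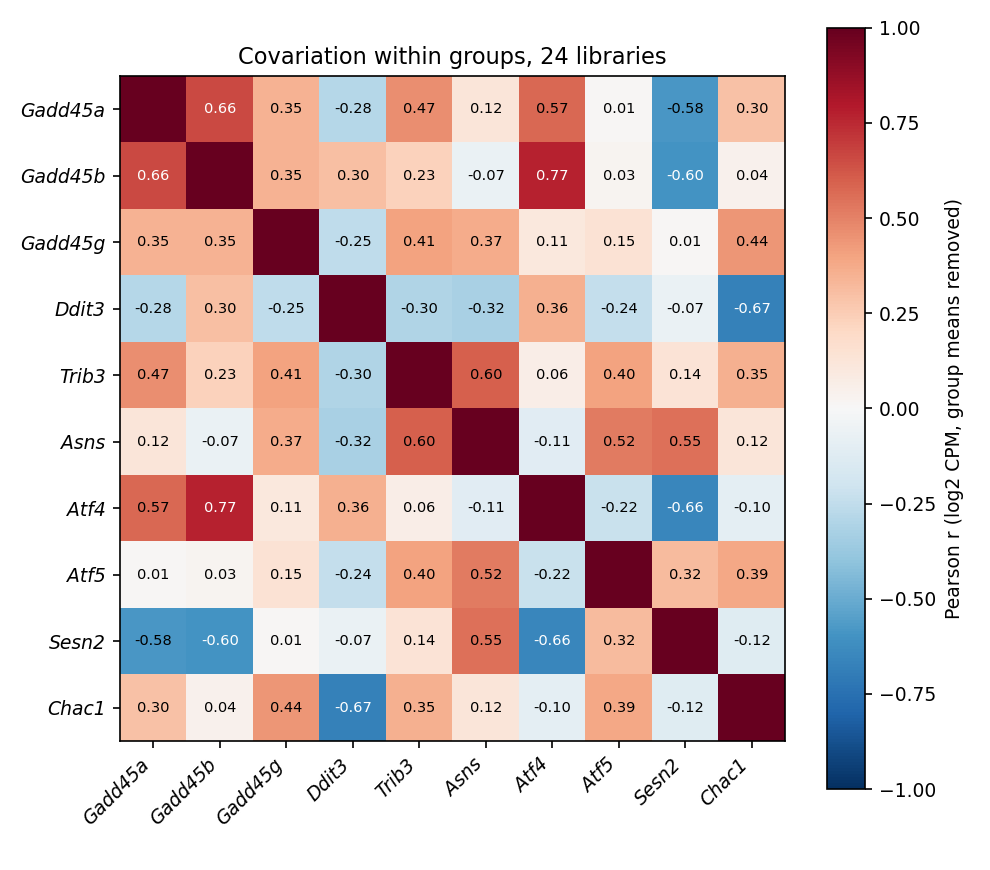
Pearson r between every pair of the 10 genes over 24 libraries (log2 CPM, group means removed), on a scale from -1 (blue) to 1 (red), with each r printed in its cell. Gadd45a, Gadd45b and Atf4 have positive r with each other, at 0.57 to 0.77, and all 3 run against Sesn2, at -0.58 to -0.66. The r of 0.57, between Gadd45a and Atf4, did not pass (adjusted permutation p = 0.070).

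The genes most like each member, by the same within-group r among 13148 other genes whose mean reached 1 CPM, are given as a description. For Gadd45b they were Nfkbia (r = 0.96, rho = 0.97), Irf1 (r = 0.94) and Tnfaip3 (r = 0.94), which encode the inhibitor IκBα, an interferon regulatory factor and the ubiquitin-editing enzyme A20. For Gadd45a they were Nipal4, Eno2 and Ptx3 at 0.90 each, Ptx3 being an IL-1-induced pentraxin. For Gadd45g the closest were more distant: Ell, an RNA polymerase elongation factor, at 0.73, Cyp27b1, the vitamin D 1α-hydroxylase, at 0.70, and Rtn4rl2 at 0.68. For Asns, Cmbl and Cd300lg each reached 0.92, and for Sesn2, D2hgdh, Galk2 and Notch4 reached 0.90 to 0.91. Trib3 was closest to Sema6b, Tead4 and the endothelial receptor gene Tie1 (0.84 to 0.88), and Ddit3 to Atg16l2, Bmp2 and Fxr2 (0.83 to 0.89). Atf4 was closest to Mirg, Tbc1d10a and Rabgef1 (0.85 to 0.87), Atf5 to Akt2, Ctsz and Pcsk6 (0.72 to 0.74), and Chac1 to Lrrc41, Cdc42ep4 and Gaa (0.69 to 0.80).

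Genes around the members were read from 8 lists. The lists were chosen with earlier results of these data known, so their counts of calls are given as descriptions. Upstream of ATF4, none of 10 eIF2 kinases, phosphatase subunits and regulators was called in any comparison. Of all genes 0.0344% were called with celecoxib, 6.94% with rofecoxib and 4.89% between the drugs, so nothing is read from the absence of calls. The list median was -0.01 with celecoxib and -0.02 with rofecoxib. The nearest were Eif2ak4, which encodes the amino acid sensing kinase GCN2, at a log2 fold change of 0.15 with celecoxib and 0.12 with rofecoxib, and Ppp1r15a, the stress-induced phosphatase subunit GADD34, at -0.25 with rofecoxib. None of 11 cytosolic tRNA synthetases under ATF4 control was called either, against the same shares of all genes. Of the synthetases, 10 of 11 had a positive value with rofecoxib, against 54.9% of all genes, at a median of 0.08.

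Of 17 genes of amino acid synthesis and transport, 2 were called with rofecoxib, in opposite directions, against 6.94% of all genes (3.88% higher, 3.06% lower). None was called with celecoxib or between the drugs, against 0.0344% and 4.89% of all genes. Mthfd2, a mitochondrial folate enzyme, fell from 59.9 ± 9.18 to 35.9 ± 5.86 CPM (log2 fold change -0.74, SE 0.15, edgeR adjusted p = 0.0095), with 8 of 8 libraries below every control. Psph, the last enzyme of serine synthesis, rose from 4.96 ± 0.73 to 7.07 ± 1.595 CPM (log2 fold change 0.51, SE 0.13, edgeR adjusted p = 0.024). With celecoxib the nearest were Slc7a11, the cystine transporter, at -0.78 and Cth, an enzyme of cysteine synthesis, at -0.37, with edgeR adjusted p of 0.24 and 0.21.

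Of 16 other targets and partners of ATF4 and CHOP, 1 fell with celecoxib and 3 fell with rofecoxib, against 0.0275% and 3.06% of all genes called lower. None rose, against 0.00688% and 3.88% called higher. The list median was -0.13 with celecoxib and -0.15 with rofecoxib, against 0.00 and 0.02 over all genes. Ddit4, an mTORC1 inhibitor that several stress factors induce, was at 82.7 ± 13.0 CPM in control and 41.4 ± 18.05 with rofecoxib (log2 fold change -0.998, SE 0.22, edgeR adjusted p = 0.013); with celecoxib it was below every control in 8 of 8 libraries. Stc2, a secreted glycoprotein, fell by 0.60 and Cebpb, a partner of ATF4 and CHOP, fell by 0.56 on the log2 scale with rofecoxib (edgeR adjusted p of 0.042 and 0.044). Cebpb was at 95.3 ± 20.6 CPM in control, 55.1 ± 14.2 with celecoxib and 64.5 ± 16.2 with rofecoxib. With celecoxib its log2 fold change was -0.79 and was not called (edgeR adjusted p = 0.087). There 8 of 8 libraries lay below every control, and 6 of 8 with rofecoxib.

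The arm of the unfolded protein response run by ATF6 and XBP1 had no call among 16 genes. With celecoxib 11 of 16 values were positive, against 50.4% of all genes, and 7 had an unadjusted p under 0.05, against 13.6%. The nearest were the chaperone gene Hsp90b1, at 546 ± 50.6 CPM in control and 659 ± 73.4 with celecoxib (log2 fold change 0.27, edgeR adjusted p = 0.15), and Pdia6, a disulfide isomerase gene, at 154 ± 9.28 and 177 ± 14.4 CPM (0.21, edgeR adjusted p = 0.15). With rofecoxib the list median was -0.00.

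Of 16 p53 targets, none was called with celecoxib, against 0.0344% of all genes. With rofecoxib 3 fell and 1 rose, against 6.94% of all genes called. Cdkn1a, which encodes the GADD45-binding inhibitor p21, fell from 215 ± 64.9 to 115 ± 27.9 CPM (log2 fold change -0.90, SE 0.25, edgeR adjusted p = 0.031). Btg2, an antiproliferative gene, fell by 0.70 and Trp53inp1, a p53-induced nuclear protein gene, also fell by 0.70 on the log2 scale (edgeR adjusted p of 0.012 and 0.017). Phlda3, an inhibitor of AKT, rose by 0.54 (edgeR adjusted p = 0.036). With celecoxib Btg2 was at -0.51 and Cdkn1a at -0.57, with edgeR adjusted p of 0.19 and 0.31.

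Of 19 partners of GADD45 and members of the p38 and JNK cascades, 1 was called with rofecoxib, against 6.94% of all genes, and 1 between the drugs, against 4.89%. Mapk14, which encodes p38α, rose with rofecoxib from 59.2 ± 5.56 to 72.5 ± 10.7 CPM (log2 fold change 0.29, SE 0.08, edgeR adjusted p = 0.039). Map3k4, which encodes the kinase that GADD45 proteins activate, was at 0.33 with celecoxib (edgeR adjusted p = 0.35). Ccnb1, the cyclin partner of a GADD45-bound kinase, was higher with celecoxib than with rofecoxib, at a mean of 0.98 against 0.51 CPM (log2 difference 0.95, edgeR adjusted p = 0.037). Among 13 sestrins and amino acid sensing genes, 1 was called with rofecoxib, against 6.94% of all genes, and 2 between the drugs, both higher with celecoxib, against 0.564%. Sesn3 fell with rofecoxib from 7.49 ± 0.95 to 4.68 ± 0.89 CPM (log2 fold change -0.68, SE 0.13, edgeR adjusted p = 0.0070). Between the drugs Sesn1, which is also a p53 target, and Sesn3 were higher with celecoxib by 0.53 and 0.47 on the log2 scale (edgeR adjusted p of 0.037 and 0.044). Sesn2 was called in no comparison, and whether it differed from Sesn1 and Sesn3 was not tested.

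**Figure D5:**
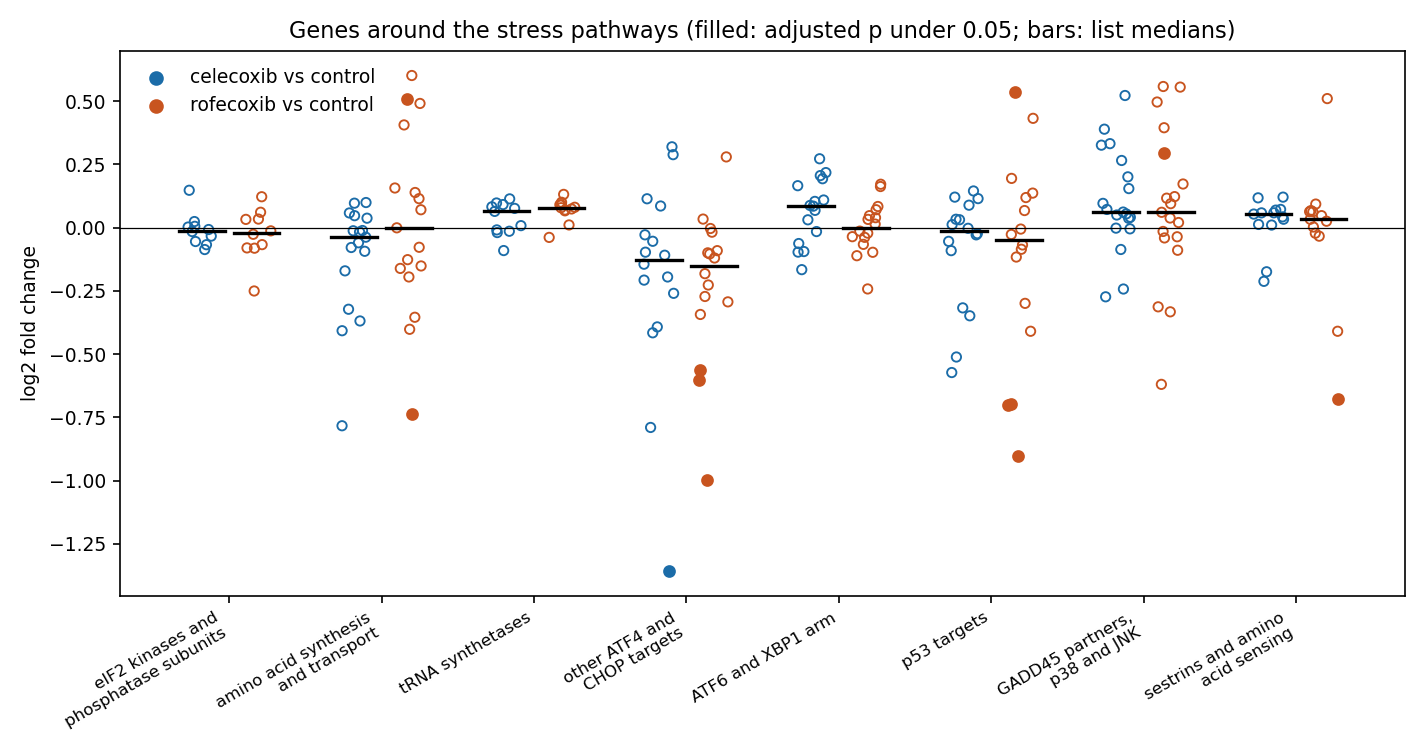
Log2 fold change (y axis) of every tested gene of the 8 lists (x axis), for celecoxib over control in blue and rofecoxib over control in orange. Filled points passed an edgeR adjusted p of 0.05 over all genes and black bars are list medians. The filled points below 0 include Ddit4 at -1.36 with celecoxib and at -0.998 with rofecoxib, and the bars of most lists lie near 0.

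With adipocyte and skeletal muscle levels as covariates, none of these calls for rofecoxib against control or between the drugs was kept, in fits that called 15 genes and no gene. The log2 fold changes for rofecoxib in that fit were -1.03 for Ddit4, -0.72 for Cdkn1a, -0.58 for Cebpb, -0.56 for Stc2, -0.54 for Btg2, -0.53 for Mthfd2, -0.52 for Sesn3 and -0.47 for Trp53inp1. Those of the 3 genes that had risen were 0.19 for Psph, 0.15 for Phlda3 and 0.17 for Mapk14. Between the drugs Ccnb1 was at 0.98, Sesn1 at 0.39 and Sesn3 at 0.28. The call of Ddit4 with celecoxib was kept, at -1.35. The adipocyte level was itself higher with rofecoxib, at a median summed 3061 CPM against 1386 in control, so this fit cannot tell diet and composition apart. The part of cell composition in these differences was not tested.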

How the data were processed

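Per the labels, polyadenylated RNA of 24 thoracic aortas was made into TruSeq libraries over 3 days, with the day of each library not given. The submitters' processing notes name CASAVA 1.8.1, STAR 2.5.1b and build mm9; neither the counting tool nor its use of strand was given in the sources used here, and overlapping genes may share reads. The deposited values are whole-number counts per gene, whose totals differ by 0.145% at most; whether reads were drawn to equal numbers is not stated. The 3 groups of 8, called biological replicates in the labels, were compared in edgeR 4.0.16 (R 4.3.3): TMM scaling (factors 0.946 to 1.07), filterByExpr, 1 mean per group, quasi-likelihood test on all 24 libraries, two-sided, Benjamini-Hochberg adjustment over 14528 genes, threshold 0.05. The common biological coefficient of variation was 19.6%. SE is the log2 fold change divided by the square root of F. Log2 CPM used a prior count of 2. Levels per kilobase used GENCODE M21 exon lengths, and gene coordinates are mm9 as deposited.

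The members and lists were chosen with earlier results of these data known. All 10 members are named; of each list, up to 4 called genes per direction by p, or else the 2 with the smallest p, of which most are given; and the 3 most similar genes per member, of which 1 is not reported here. Nars1 was not analysed here. Alternatives were RLE factors, library size alone, no filter, a mean of 1 CPM, DESeq2 1.42.0, limma 3.58.1 voom, only the groups compared, a replicate block, replicates 1 to 4 and 5 to 8 apart or as a term, marker covariates and each library left out. Tests were tried on simulated data first. Libraries of 1 group differed beyond sampling noise (chi-square per degree of freedom 8.33 to 79.8), so none was counted as a duplicate.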

Additional observations from a re-analysis of the deposited data

Results flagged for a closer look

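Chac1 in rofecoxib replicate 2 was at 9.31 CPM, far above the other 7 rofecoxib libraries, of which the next was at 5.89; the gap was 0.579 of the group's range, against a Dixon critical value of 0.526 for 8 samples. It was the 1 such library among 30 gene and group combinations examined, and chance marks about 1 in 20.

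Asns differed between the drugs, with a log2 difference, celecoxib minus rofecoxib, of -0.71 (edgeR adjusted p = 0.042) at unmatched doses. Within groups Asns followed adipocyte (r = 0.84) and endothelial (r = 0.80) marker levels and ran against smooth muscle markers (r = -0.81). The difference was -0.02 with adipocyte and skeletal muscle levels as covariates, in a fit that called no gene of 14528. The adipocyte level itself differed between the drugs, at a median summed 1384 CPM with celecoxib and 3061 with rofecoxib. That fit therefore cannot tell diet and composition apart, and the cause was not tested.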

How the results depend on the processing

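For celecoxib against control, the 5 genes called became 2 without the filter, 107 with DESeq2, 121 with limma voom, 45 with only the groups compared, 27 with a replicate block, 174 with replicates 1 to 4 and 5 to 8 as a term, 9 in replicates 1 to 4 and 313 in replicates 5 to 8. Gadd45g was called in each of these but the last, which called 0 of the 10 members. For rofecoxib the 1008 genes became 557 without the filter, 1796 with DESeq2, 2448 with voom, 1735 with that term, 42 in replicates 1 to 4, 401 in replicates 5 to 8 and 15 with marker covariates; members called became 2 with voom (Gadd45g and Asns) and 0 in replicates 1 to 4, in replicates 5 to 8 and with covariates. Between the drugs the 710 became 1439 with DESeq2, 2073 in replicates 1 to 4 (2 members, Gadd45g and Asns), and 0, with 0 members, in edgeR without the filter (4367 genes at an unadjusted p under 0.05), with only the groups compared (2816), with the replicate block (3169), in replicates 5 to 8 (896) and with covariates (471). Leaving out 1 library gave 0 to 34, 358 to 1945 and 0 to 1997 genes for the 3 comparisons, the highest without celecoxib replicate 2 for the first and without rofecoxib replicate 8 for the others, and 0 to 1, 0 to 2 and 0 to 1 members.

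The 8 correlated pairs became 9 with RLE factors, 9 with covariates, 0 in replicates 1 to 4 or 5 to 8 alone and 2 without the 2 farthest libraries; Asns and Sesn2 turned to r = -0.041 with covariates. Same-numbered libraries deviated together in part only (r from -0.30 to 0.56, and 2 libraries correlated best with their own number), so the numbers were not taken as pairs; with the replicate block Gadd45g was at -0.83 and -0.53 and called in both, and Asns between the drugs at -0.65 and not called (edgeR adjusted p = 0.080).

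The list calls with rofecoxib of Psph, Phlda3, Cdkn1a, Cebpb, Stc2 and Mapk14 were lost in 5 to 12 of 24 fits that left out 1 library. Each was lost without rofecoxib replicate 4, rofecoxib replicate 7, control replicate 2 or control replicate 7. These fits called 532, 383, 358 and 426 genes among all tested, against 1008 with all libraries. The list calls with rofecoxib of Mthfd2, Ddit4, Btg2, Trp53inp1 and Sesn3 were kept in 24. Between the drugs Sesn1 and Ccnb1 kept their calls in 15 and Sesn3 in 9, and Ddit4 with celecoxib in 20. The fits that lost Ddit4 called 0 genes among all tested. In no case was the cause tested. Trib3, Chac1, Gadd45a and Sesn2, at 66 to 334 counts per library, had the fewest reads of the 10 and an SE of 0.15 to 0.20 on the log2 scale.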
